A study of Mus musculus with 18 samples.

Results

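The genes described here encode the REST repressor and the enzymes and scaffolds it brings to chromatin: Rest, Sin3a, the CoREST family Rcor1, Rcor2 and Rcor3, the demethylase gene Kdm1a (LSD1), and the deacetylase genes Hdac1 and Hdac2. They were taken by gene symbol, and all 8 were found among the 38250 features of the count tables and passed the filter on low counts. The libraries are poly-A RNA of cells sorted from the lateral cortex of C57BL/6 mouse embryos at embryonic day 14.5, with meninges and ganglionic eminences taken away first. All embryos carried the genotype label Btg2GFP/Tubb3GFP, 1 reporter at an antiproliferative gene of progenitors that are about to form neurons and 1 at a neuronal tubulin, while the sample titles write RFP for the Btg2 fractions. The 3 groups are proliferating progenitors (PP, Btg2 negative), differentiating progenitors (DP, Btg2 positive) and neurons (Neuron, Tubb3 positive), with 3 libraries each, and each library was a pool of more than 3 embryos of different litters. The comparisons ask how the transcripts of the repressor differ between these stages of cortical neurogenesis.

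REST is a zinc finger protein that binds a DNA element called RE1 near many neuronal genes and keeps them silent outside neurons and in progenitors. One end of the protein recruits the scaffold SIN3A, and the other recruits a CoREST protein, which holds the histone demethylase LSD1 and the histone deacetylases HDAC1 and HDAC2. CoREST and LSD1 also work with DNA-binding proteins other than REST, and HDAC1 and HDAC2 are shared with further complexes. In the developing cortex REST is known to restrain neuronal gene expression in progenitors, and a splice form of LSD1 made in neurons is known to favour neurite growth.

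The element that REST reads is shown first, because the target genes described further on are known for carrying it. The RE1 core was searched as TCAGCACCNNGGACAG on both strands of the RefSeq promoters (GRCm38.p6, 250 bases before to 50 after each gene's start). Only exact matches to these letters were counted, with any base at N, so an element with 1 changed base was missed. The core was present in 8 of 27025 genes (0.0296%). Its left block, TCAGCACC, was present in 500 genes (1.85%), and its right block, GGACAG, in 6672 genes (24.7%); the blocks are parts of the core, so their matches overlap with those of the core. Of 32 textbook REST target genes, 22 had a promoter in the table, and 0 of these 22 held the core, 5 (22.7%) held the left block and 7 (31.8%) the right block. The 5 windows with the left block are printed below 5′ to 3′ as 40 bases that begin 10 bases before the block, with the left block in capitals and, where it follows within the window, the right block too.
Scg2, chr1:79440016-79440055, plus strand: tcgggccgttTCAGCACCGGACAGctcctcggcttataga
Unc13a, chr8:71671718-71671757, plus strand: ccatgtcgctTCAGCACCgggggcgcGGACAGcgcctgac
Tubb3, chr8:123411410-123411449, minus strand: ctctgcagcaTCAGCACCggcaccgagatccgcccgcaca
Celsr3, chr9:108825909-108825948, plus strand: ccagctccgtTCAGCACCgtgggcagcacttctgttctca
Syn1, chrX:20921120-20921159, minus strand: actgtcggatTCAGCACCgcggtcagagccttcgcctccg
In Scg2 the blocks abut, and in Unc13a 8 bases lie between them. In Tubb3, Celsr3 and Syn1 the left block stands without an exact right block in the window. At the spacing of the core, Celsr3 has gggcag and Syn1 has ggtcag, each 1 base off the right block. The windows show matches and near matches of letters in a short stretch around the start and not measured binding sites. Of the repressor genes, 6 had a promoter in the table (Hdac2, Kdm1a, Rcor1, Rcor2, Rcor3 and Sin3a), of which 0 held the core or the left block and 1, Rcor2, held the right block.

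Levels are counts divided by the library total, scaled by edgeR's TMM method and expressed as CPM, listed by library in the order L222, L355 and L393 for PP, L223, L356 and L394 for DP, and L224, L357 and L395 for Neuron. Means carry the SD over 3 libraries. Folds and adjusted p-values are from edgeR's quasi-likelihood test on all 9 libraries, adjusted by the Benjamini-Hochberg method over 18627 features, and a change is called at an adjusted p under 0.05. Gene positions are on mm9, as the deposited tables give them.

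Library totals were between 34337209 and 55935128 counts. Summed over 8 radial glia markers, levels were 5403 to 6319 CPM in PP, 2494 to 3625 in DP and 298 to 380 in Neuron. Summed over 5 intermediate progenitor markers, which include the sort gene Btg2, they were 1139 to 1164, 2577 to 3846 and 404 to 495, and over 7 neuron markers, which include the sort gene Tubb3, 396 to 604, 2325 to 3112 and 10037 to 10873. The log2 fold changes of Btg2 itself were 1.00 from PP to DP and -2.39 from DP to Neuron. Markers of other cell types summed to less than these, apart from red blood cell genes in PP and interneuron and ventral markers in Neuron. Red blood cell genes (9 markers) summed to 8365 to 15324 CPM in PP, 18.4 to 125 in DP and 14.0 to 16.4 in Neuron. The sums for 9 endothelial, 6 pericyte, 9 microglial and 6 meningeal fibroblast markers reached 29.3, 59.6, 12.5 and 94.0 CPM in PP and were at most 13.6 in DP and 4.76 in Neuron. Interneuron and ventral markers (8 genes) summed to 5.24 to 52.7 CPM in PP, 29.4 to 158 in DP and 425 to 461 in Neuron, and oligodendrocyte precursor markers (4 genes) to at most 12.5 in any library. Markers listed at 0 reads in at least 1 library were Cldn5, Emcn, Kcnj8, Anpep, Itgam, Trem2, Tyrobp, Col3a1, Lum, Foxc1, Dlx6, Olig1 and Sox10. In these bulk libraries, fewer cells of a type and less RNA per cell cannot be told apart.

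From PP to DP, 3 of the 8 genes rose (Rcor2, Kdm1a and Hdac2) and 2 fell (Rest and Rcor3), where 21.3% of all features tested were called higher and 20.2% lower. The median log2 fold change was 0.13 over the 8 genes and -0.02 over all features. From DP to Neuron, Hdac2 alone rose and 5 fell (Rest, Rcor1, Rcor2, Hdac1 and Sin3a), where 33.1% of features were higher and 34.2% lower, and the medians were -0.37 and -0.04. Between the ends of the series, 3 were higher in Neuron than in PP (Rcor2, Kdm1a and Hdac2) and 3 lower (Rest, Hdac1 and Sin3a), where 36.7% and 38.6% of features were called, and the medians were -0.16 and -0.04. Rcor2 was the member called higher in DP than in both PP and Neuron, a pattern called in 4.37% of features. With libraries of consecutive number taken as a replicate block, Rcor1 also rose from PP to DP, and 5 genes were lower in Neuron than in PP, with Rcor1 and Rcor3 added, so that 2 genes, Rcor1 and Rcor2, were higher in DP than in both. The 3 comparisons share libraries, so their values are set side by side and are not independent. Nothing particular to the 8 genes as a group is read from these counts.

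**Figure D1:**
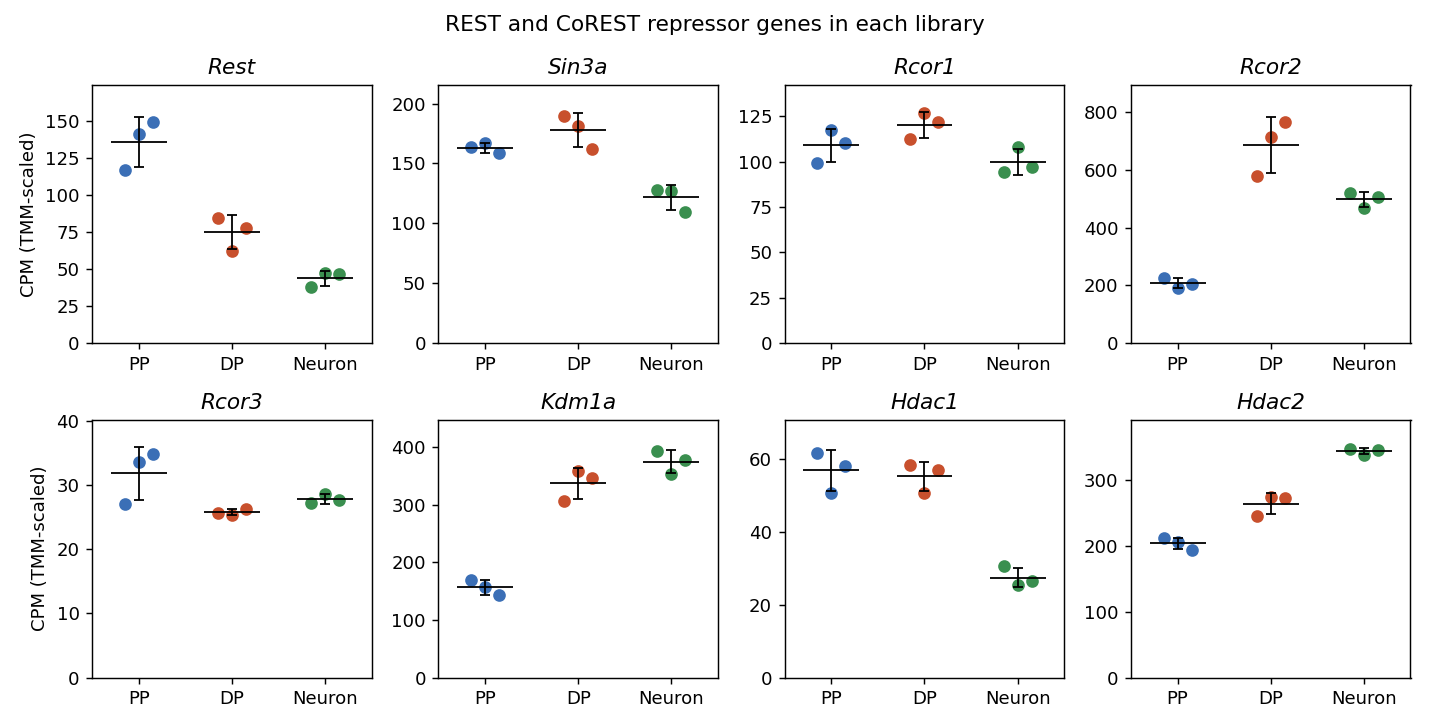
Level of each repressor gene in each library (CPM on a linear axis from 0), with the mean as a horizontal line and the SD as the error bar over the 3 libraries of PP, DP and Neuron. Rest steps down from a mean of 136 to 74.6 and 43.6, Rcor2 peaks in DP at 687, and Kdm1a and Hdac2 end higher in Neuron than in PP.

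Rest, the DNA-binding repressor itself (ENSMUSG00000029249, chromosome 5, 77694516 to 77715457, plus strand, 6 exon blocks), stood at 116, 141 and 149 CPM in PP, at 84.2, 61.9 and 77.8 in DP, and at 37.8, 46.9 and 46.3 in Neuron. The lowest PP library lay above the highest DP library, and the lowest DP library above the highest Neuron library. Rest fell 1.82-fold from PP to DP (log2 fold change -0.86, SE 0.129, adjusted p = 0.000273) and 1.71-fold from DP to Neuron (-0.77, SE 0.130, adjusted p = 0.000237). Across the whole series it was 3.11-fold lower in Neuron than in PP (adjusted p = 3.18e-07), from a mean of 136 ± 17.0 to 43.6 ± 5.09. The Rest transcript was still counted in neurons, with at least 1613 reads in every Neuron library. In PP, the sums of other cell types went both ways with Rest. Meningeal fibroblast markers summed to 13.4, 24.0 and 94.0 CPM in L222, L355 and L393, endothelial markers to 8.78, 12.9 and 29.3, and pericyte markers to 32.4, 47.9 and 59.6. In the same order, microglial markers summed to 12.5, 9.59 and 8.92 CPM, interneuron and ventral markers to 52.7, 17.2 and 5.24, oligodendrocyte precursor markers to 9.64, 6.96 and 6.55, and neuron markers to 604, 488 and 396. Red blood cell markers were highest in L222, with 15324 against 8365 and 8791 CPM. In DP, L223 had the highest Rest level together with the highest radial glia sum, 3625 CPM, and the lowest intermediate progenitor sum, 2577 CPM. The part of these cells in the result was not tested. Without L222, L223 and L224 together, Rest fell by 1.04 on the log2 scale from PP to DP and by 0.58 from DP to Neuron. A gene count does not separate the full-length transcript from REST4, a truncated splice form made in neurons.

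Sin3a, the scaffold that REST recruits through its other arm (ENSMUSG00000042557, chromosome 9, 56919847 to 56976173, plus strand, 25 exon blocks), stood at 163, 166.9 and 158 CPM in PP, at 190, 181 and 162 in DP, and at 128, 127 and 110 in Neuron. The PP and DP libraries overlapped, and the Neuron libraries lay below all of them. From PP to DP the log2 fold change was 0.13 (95% interval -0.05 to 0.30, adjusted p = 0.234). Sin3a fell 1.46-fold from DP to Neuron (adjusted p = 7.47e-05) and was 1.34-fold lower in Neuron than in PP (adjusted p = 0.000461). Its exons share 205 bases with an antisense RNA of 974 reads over all libraries, and 8 bases with a second RNA of 203 reads.

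Of the 3 CoREST scaffolds, Rcor2 changed by more than Rcor1 and Rcor3 in each comparison. Rcor1, the founding CoREST gene (ENSMUSG00000037896, chromosome 12, 112277561 to 112354112, plus strand, 12 exon blocks), had levels of 99.3, 117 and 110 CPM in PP, of 112, 127 and 122 in DP, and of 94.4, 108 and 96.8 in Neuron. The PP libraries overlapped those of both other groups, and the DP libraries lay above those of Neuron. From PP to DP its log2 fold change was 0.14 (95% interval -0.04 to 0.32, adjusted p = 0.194), and from PP to Neuron -0.13 (-0.31 to 0.05, adjusted p = 0.174), and with the replicate block these passed the threshold (adjusted p = 0.0269 and 0.0277). Rcor1 fell 1.21-fold from DP to Neuron (adjusted p = 0.0120), a call that was lost without L224 (adjusted p = 0.0509).

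Rcor2, a CoREST paralog known from neural progenitors (ENSMUSG00000024968, chromosome 19, 7341815 to 7349715, plus strand, 13 exon blocks), stood at 227, 192 and 206 CPM in PP, at 579, 715 and 768 in DP, and at 521, 470 and 506 in Neuron. Every DP library lay above every Neuron library, and every Neuron library above every PP library. The step from PP to DP had a log2 fold change of 1.72 (SE 0.107, adjusted p = 5.02e-07), the 831st highest of 18627 features. From DP to Neuron Rcor2 fell 1.38-fold (log2 fold change -0.46, SE 0.104, adjusted p = 0.00196), so it was 2.39-fold higher in Neuron than in PP (adjusted p = 4.41e-07). The DP library with the lowest Rcor2, L223, was the one with the highest Rest and the highest radial glia sum. Without L222, L223 and L224, the log2 fold changes of Rcor2 were 1.91 and -0.59 for the same steps.

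Rcor3 (ENSMUSG00000037395, chromosome 1, 193922652 to 193961892, minus strand, 11 exon blocks) had the fewest reads of the family, with levels of 27.1, 33.6 and 34.8 CPM in PP, of 25.6, 25.3 and 26.3 in DP, and of 27.1, 28.6 and 27.7 in Neuron. The DP libraries lay below those of both other groups, whose ranges overlapped. It fell 1.24-fold from PP to DP (log2 fold change -0.31, SE 0.0937, adjusted p = 0.0210), and this call was lost without L355, L393 or L356 (adjusted p = 0.0801, 0.0924 and 0.0659). From DP to Neuron the log2 fold change was 0.11 (adjusted p = 0.312) and from PP to Neuron -0.20 (adjusted p = 0.0772). The last value passed the threshold without L222 (adjusted p = 0.00439), without L222, L223 and L224 together (0.0183), with the paired-end runs alone (0.0466) and with the replicate block (0.0429). Rcor3 shares 674 exon bases with an RNA on the opposite strand, which had 260 reads over all libraries.

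Set on a scale of CPM per kilobase of exon, so that genes of different length can be compared, Rcor2 was the leading CoREST transcript in every library. It made up 70.2% ± 3.68 of the summed Rcor level in PP, 88.4% ± 1.12 in DP and 86.2% ± 1.33 in Neuron. Rcor1 made up 20.3% ± 2.34, 8.61% ± 0.762 and 9.53% ± 1.06, and Rcor3 9.46% ± 1.45, 2.95% ± 0.388 and 4.23% ± 0.273. The summed Rcor level was 94.6 ± 3.04 CPM per kilobase in PP, 247.5 ± 32.2 in DP and 184.5 ± 6.91 in Neuron. The ratio of Rcor2 to Rcor1 reads within a library, which needs no scaling between libraries, was 2.28, 1.64 and 1.87 in PP, at 5.16, 5.63 and 6.32 in DP, and at 5.51, 4.36 and 5.23 in Neuron. Every DP and Neuron library lay above every PP library, and the DP and Neuron libraries overlapped. The mean log2 ratio was 1.57 higher in DP than in PP and 1.39 higher in Neuron than in PP (exact two-sided permutation test, p = 0.1 for each, the smallest that 3 against 3 libraries can give). It was 0.94 ± 0.24 in PP, 2.51 ± 0.15 in DP and 2.32 ± 0.18 in Neuron, and Neuron and DP differed by -0.18 (exact permutation p = 0.3), which was -0.11 without L394, -0.08 without L357 and -0.32 without L222, L223 and L224 together.

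Kdm1a, the demethylase that CoREST holds and that removes methyl groups from lysine 4 of histone H3 (ENSMUSG00000036940, chromosome 4, 136106455 to 136158638, minus strand, 20 exon blocks), stood at 169, 158 and 144 CPM in PP, at 307, 358 and 346 in DP, and at 392, 353.4 and 378 in Neuron. The PP libraries lay below all others, and the DP and Neuron libraries overlapped. Kdm1a rose 2.15-fold from PP to DP (log2 fold change 1.11, SE 0.0837, adjusted p = 1.71e-06) and was 2.39-fold higher in Neuron than in PP (adjusted p = 5.65e-08). From DP to Neuron the log2 fold change was 0.15 (95% interval -0.03 to 0.33, adjusted p = 0.123). In every library the paired-end run gave less Kdm1a than the single-read run, by 0.43 to 0.36 on the log2 scale, the widest gap of the 8 genes. The neuronal splice form of LSD1 is counted together with the common form, so no value here tells them apart.

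Hdac1 and Hdac2 encode the closely related deacetylases of the complex. Their transcripts moved in opposite directions from DP to Neuron and between PP and Neuron. Hdac1 (ENSMUSG00000028800, chromosome 4, 129193348 to 129219957, minus strand, 12 exon blocks) stood at 61.8, 50.9 and 58.2 CPM in PP, at 58.3, 50.8 and 56.9 in DP, and at 30.6, 25.4 and 26.5 in Neuron. The PP and DP libraries overlapped nearly whole, and the Neuron libraries lay well below both. From PP to DP its log2 fold change was -0.04 (95% interval -0.25 to 0.17, adjusted p = 0.770). Hdac1 fell 2.01-fold from DP to Neuron (log2 fold change -1.01, SE 0.0985, adjusted p = 2.43e-06) and was 2.07-fold lower in Neuron than in PP (adjusted p = 1.25e-06).

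Hdac2 (ENSMUSG00000019777, chromosome 10, 36694350 to 36721695, plus strand, 15 exon blocks) stood at 212, 207 and 194 CPM in PP, at 246, 274 and 274 in DP, and at 347, 339 and 346 in Neuron. The 3 groups did not overlap, and each step went up. Hdac2 rose 1.30-fold from PP to DP (adjusted p = 0.000884) and 1.30-fold from DP to Neuron (adjusted p = 0.000307), and was 1.69-fold higher in Neuron than in PP (adjusted p = 7.13e-07). Per kilobase, Hdac1 made up 26.6% ± 2.05 of the pair in PP, 21.4% ± 2.08 in DP and 9.41% ± 0.760 in Neuron, while the sum of the pair was 62.1 ± 2.66, 75.1 ± 2.97 and 84.8 ± 1.69 CPM per kilobase. The mean log2 ratio of Hdac1 to Hdac2 reads was -1.85 ± 0.15 in PP, -2.26 ± 0.18 in DP and -3.65 ± 0.13 in Neuron, with no overlap between groups. The difference was -0.41 between DP and PP, -1.39 between Neuron and DP and -1.80 between Neuron and PP (exact two-sided permutation p = 0.1 each, the smallest possible). Over the 6 ratio comparisons of both pairs, the Benjamini-Hochberg adjusted permutation p was 0.12 for 5 and 0.3 for the Rcor2 to Rcor1 ratio of Neuron against DP.

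**Figure D2:**
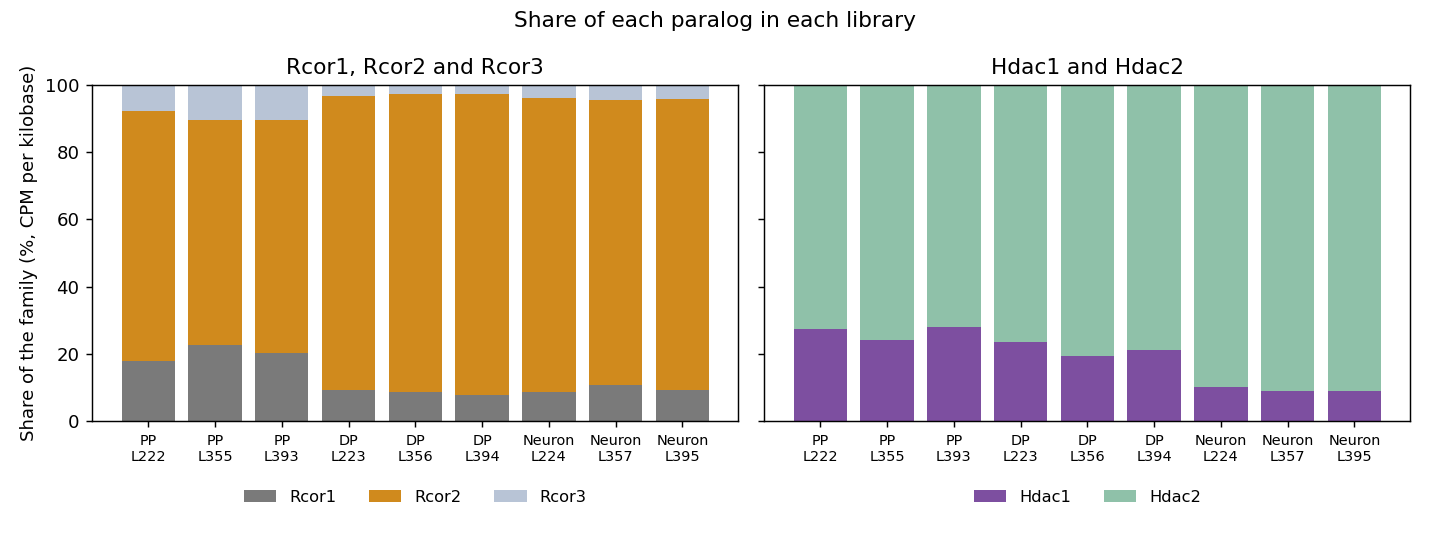
Share of each paralog in the summed level of its family (%, from CPM per kilobase of exon) in each of the 9 libraries, as stacked bars from 0 to 100. Rcor2 takes 67.1% to 74.3% of the Rcor sum in PP and 84.7% to 89.5% in DP and Neuron, and Hdac1 takes 24.3% to 28.02% of the Hdac pair in PP and 8.89% to 10.3% in Neuron.

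The order of the 8 genes by level per kilobase changed along the series. In PP, Rcor2 led with 66.5 CPM per kilobase, followed by Hdac2 (45.6), Kdm1a and Sin3a (both 30.2), Rcor1 (19.2), Rest (18.7), Hdac1 (16.5) and Rcor3 (8.92). The libraries of Kdm1a and Sin3a overlapped, as did those of Rcor1 and Rest and of Rest and Hdac1. In DP the order was Rcor2 (219), Kdm1a (65.1), Hdac2 (59.0), Sin3a (32.9), Rcor1 (21.1), Hdac1 (16.1), Rest (10.3) and Rcor3 (7.22), and of neighbours only Kdm1a and Hdac2 overlapped. In Neuron it was Rcor2 (159), Hdac2 (76.8), Kdm1a (72.3), Sin3a (22.5), Rcor1 (17.5), Hdac1 (7.98), Rcor3 (7.80) and Rest (6.01), with overlap between Hdac2 and Kdm1a and between Hdac1 and Rcor3. Rest thus stood sixth in PP, seventh in DP and last in Neuron.

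**Figure D3:**
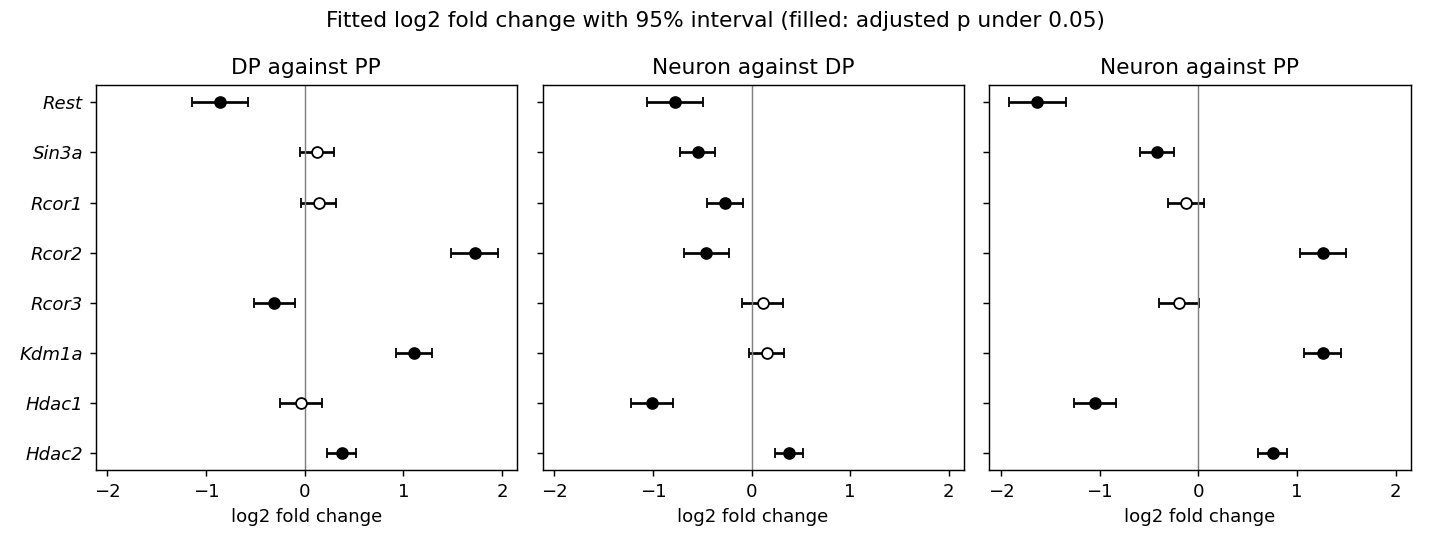
Fitted log2 fold change of each repressor gene (x axis) in DP against PP, Neuron against DP and Neuron against PP, with the 95% interval as a bar and a filled point where the adjusted p is under 0.05. Rest lies left of 0 in all 3 panels and Hdac2 right of 0, while Rcor2 lies at 1.72, -0.46 and 1.26.

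In the authors' deposited table of each consecutive step, each of the 8 genes fell on the same side of the 0.05 threshold as in the fit above. In the authors' deposited table of the first step and then that of the second, the log2 fold changes were -0.86 and -0.74 for Rest, 1.72 and -0.43 for Rcor2, 1.11 and 0.18 for Kdm1a, -0.04 and -0.98 for Hdac1, and 0.37 and 0.41 for Hdac2.

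Likeness of profile was measured as the Euclidean distance between log2 CPM values over the 9 libraries, each gene centred on its own mean, among 12841 tested protein-coding genes with a mean of at least 1 CPM. Nearest to Rest were Mettl1 (distance 0.289), Lck (0.321) and A130022J15Rik (0.347). Nearest to Rcor2 were Stk36 (0.240), the receptor gene Adcyap1r1 (0.283) and the reelin receptor gene Lrp8 (0.306), which rose from 238 ± 28.6 CPM in PP to 837 ± 96.2 in DP and stood at 613 ± 52.5 in Neuron. Rcor1 was nearest to Fam53c (0.140), Cebpg (0.142) and Tstd2 (0.150), and Rcor3 to Dhcr7 (0.146), Saal1 (0.197) and Scamp4 (0.202). Kdm1a lay nearest to Slc39a11 (0.175), Sesn1 (0.210) and Gatsl2 (0.276), and Hdac1 to Map3k11 (0.168), Hlcs (0.204) and Nhsl2 (0.208). For Hdac2 the nearest was Kdm4c (0.0986), a histone demethylase gene, followed by Ift46 (0.108) and Nt5c2 (0.116), and for Sin3a they were Zfp146 (0.140), Mbd3 (0.162) and Rfx7 (0.178). Among the 8 genes themselves the closest pair was Rcor1 and Sin3a (0.541) and the farthest was Rest and Rcor2 (3.96).

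Genes whose products act on REST were taken next. Of 10, 4 rose and 4 fell from PP to DP (21.3% and 20.2% of all features), 5 rose and 3 fell from DP to Neuron (33.1% and 34.2%), and 7 were higher and 3 lower in Neuron than in PP (36.7% and 38.6%), and their median log2 fold changes were 0.12, 0.16 and 0.34. Without L222, L223 and L224, 2 rose and 3 fell from PP to DP, and with the replicate block 5 rose and 4 fell. Srrm4, the neural splicing factor known to switch Rest to the REST4 form, stood at 78.2, 52.7 and 46.3 CPM in PP, at 347, 482 and 481 in DP, and at 670, 676 and 724 in Neuron. Its groups did not overlap. Srrm4 rose 7.40-fold from PP to DP (adjusted p = 6.68e-07) and 1.58-fold from DP to Neuron (adjusted p = 0.00548).

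The phosphatase genes Ctdsp1, Ctdsp2 and Ctdspl, whose products are known to act with REST, fell in both steps. Ctdsp1 stood at 119, 116 and 115 CPM in PP, at 78.3, 61.8 and 62.5 in DP, and at 14.2, 11.4 and 12.9 in Neuron. It fell 1.73-fold and then 5.26-fold (adjusted p = 7.86e-05 and 3.14e-09). Ctdsp2 fell 1.47-fold and then 1.67-fold (adjusted p = 0.000238 and 7.59e-06), and Ctdspl 2.48-fold and then 1.33-fold (adjusted p = 8.05e-07 and 0.00169). Btrc, which encodes the ubiquitin ligase subunit that marks REST for degradation, went the other way, with levels of 61.6, 61.3 and 63.8 CPM in PP, of 79.2, 83.9 and 86.4 in DP, and of 140, 136 and 140 in Neuron. It rose 1.34-fold and then 1.67-fold (adjusted p = 0.000182 and 4.17e-07). Prickle1, whose product is known to bind REST and to act on its place in the cell, rose from 3.20, 3.93 and 4.64 CPM in PP to 4.94, 4.86 and 5.62 in DP and to 44.5, 48.6 and 48.5 in Neuron, 1.30-fold and then 9.18-fold (adjusted p = 0.0353 and 1.09e-09).

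Zfp335, a zinc finger gene that is known to be needed for Rest expression in mouse cortical progenitors, stood at 69.4, 77.7 and 82.3 CPM in PP, at 84.5, 92.7 and 89.5 in DP, and at 103, 107 and 100 in Neuron. The groups did not overlap, and they rose where Rest fell. The calls for its first and second step (adjusted p = 0.0349 and 0.0197) did not hold in all settings: the first was lost without L222, L355, L356 or L394 (adjusted p = 0.130, 0.0661, 0.112 and 0.0787), without L222, L223 and L224 together (0.0591) and with only the 2 groups fitted (0.0638), and the second without L223 or L357 (0.0537 and 0.0704).

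**Figure D4:**
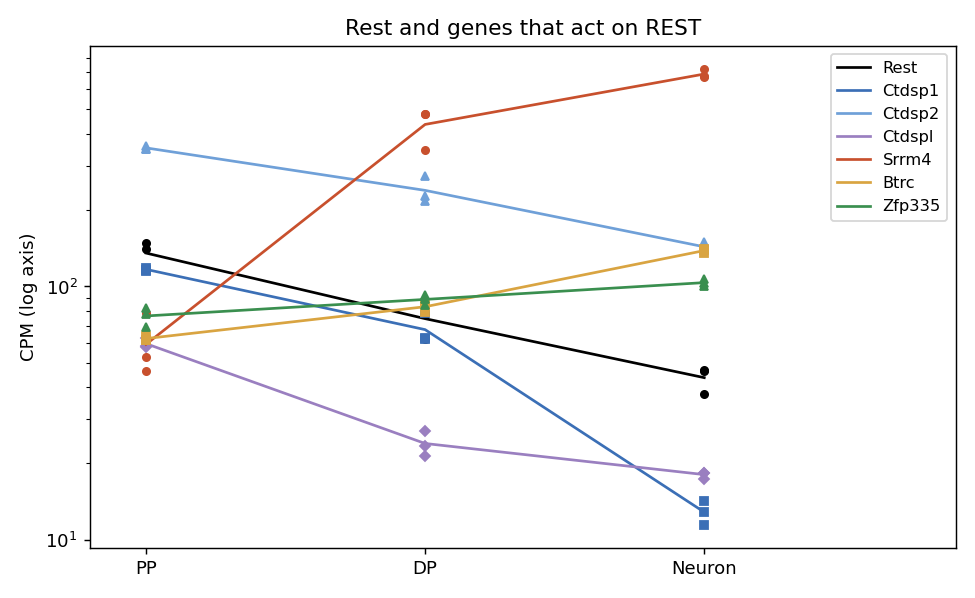
Levels of Rest and of genes that act on REST in PP, DP and Neuron (CPM on a log axis), with 1 point per library and lines through the means of the 3 libraries. Rest, Ctdsp1, Ctdsp2 and Ctdspl step down along the series, while Srrm4, Btrc and Zfp335 step up. Prickle1, Fbxw11, Usp7 and Usp15 of the same list are not drawn, and Usp15 was lowest in DP and highest in Neuron.

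Other partners of REST and CoREST moved in both directions. Of 16 genes, 7 rose and 2 fell from PP to DP (21.3% and 20.2% of all features), 6 rose and 6 fell from DP to Neuron (33.1% and 34.2%), and 10 were higher and 4 lower in Neuron than in PP (36.7% and 38.6%). The medians were 0.15, -0.00215 and 0.32 on the log2 scale, and without L222, L223 and L224 the second step had 3 higher and 6 lower. The first step had 10 higher and 2 lower with the replicate block, and the second had 7 higher and 7 lower. Gse1, a subunit of the CoREST complex, rose 1.98-fold from PP to DP, with 327, 315.3 and 301 CPM in PP and 583, 655 and 634 in DP (adjusted p = 1.87e-06). Phf21a, whose product (BHC80) reads unmethylated lysine 4 of histone H3 in the complex, rose 1.47-fold in the same step (adjusted p = 7.16e-05), and both fell slightly from DP to Neuron (1.16-fold and 1.14-fold, adjusted p = 0.0215 and 0.0334). Cdyl, a corepressor that links REST to histone methyltransferases, stood at 24.4, 24.0 and 25.6 CPM in PP, at 22.2, 19.1 and 19.8 in DP, and at 6.25, 5.81 and 6.03 in Neuron. It fell 1.21-fold and then 3.38-fold (adjusted p = 0.0215 and 8.75e-09). Zfp217, a zinc finger partner of CoREST, fell 2.77-fold from DP to Neuron (adjusted p = 4.01e-08), and Ctbp2, a corepressor of the same complexes, was 1.25-fold lower in DP than in PP (adjusted p = 0.0203). Zmym3, a further CoREST subunit, rose 1.93-fold from DP to Neuron (adjusted p = 3.18e-07). Smarca4, the chromatin remodeller BRG1, rose 1.46-fold and then 1.57-fold (adjusted p = 0.000129 and 8.69e-06).

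Of 17 further subunits of the Sin3 complex, 6 rose and 2 fell from PP to DP (21.3% and 20.2% of all features), 4 rose and 5 fell from DP to Neuron (33.1% and 34.2%), and 9 were higher and 5 lower in Neuron than in PP (36.7% and 38.6%), with medians of 0.20, 0.00486 and 0.14. With the replicate block, 10 rose and 3 fell from PP to DP. The histone chaperone gene Rbbp7 had the deepest fall of the 17, with levels of 137, 136 and 123 CPM in PP, of 118, 104 and 101 in DP, and of 47.9, 49.8 and 46.3 in Neuron. It fell 1.22-fold and then 2.24-fold (adjusted p = 0.00905 and 7.53e-08). Fam60a fell 2.01-fold from DP to Neuron (adjusted p = 2.92e-05), and Ing2, whose product reads methylated histone H3, was 1.98-fold lower in Neuron than in PP (adjusted p = 1.04e-05). Arid4a rose 1.29-fold and then 1.48-fold (adjusted p = 0.00365 and 7.37e-05), Arid4b rose 1.43-fold from PP to DP (adjusted p = 0.000207), and Sap30l rose 1.62-fold from DP to Neuron (adjusted p = 0.00108). Sap18 fell 1.24-fold and then rose 1.20-fold (adjusted p = 0.0199 and 0.0258).

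Among 9 other histone deacetylase genes and Kdm1b, the paralog of Kdm1a, 5 of the 10 rose and 0 fell from PP to DP (21.3% and 20.2% of all features). From DP to Neuron 6 rose and 3 fell (33.1% and 34.2%), and 6 were higher and 2 lower in Neuron than in PP (36.7% and 38.6%). The other 5 did not pass the threshold from PP to DP, and with the replicate block 1 of them, Hdac11, fell (adjusted p = 0.0128). The medians were 0.21, 0.41 and 0.49. Hdac5, a class II deacetylase gene, stood at 96.6, 95.1 and 97.1 CPM in PP, at 167.6, 209 and 196 in DP, and at 353.6, 345 and 325 in Neuron, and rose 1.98-fold and then 1.79-fold (adjusted p = 3.05e-06 and 2.07e-06). Kdm1b rose 1.47-fold and then 1.64-fold (adjusted p = 0.000140 and 5.06e-06), and Hdac10 2.34-fold from DP to Neuron (adjusted p = 9.40e-06). Hdac9 and Hdac8 fell 2.42-fold and 1.58-fold in that step (adjusted p = 8.27e-06 and 5.21e-05).

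Some DNA-binding proteins recruit CoREST and LSD1 without REST. Of 6 such genes 4 were tested, as Gfi1 and Gfi1b had too few reads. Of the 4, Snai1 and Snai2 also had few reads. Snai1 had 48 in PP, 35 in DP and 57 in Neuron, and Snai2 had 47, 33 and 7, all libraries of a group added. From PP to DP, 1 of the 4 rose and 1 fell (21.3% and 20.2% of all features), from DP to Neuron 3 fell (33.1% and 34.2%), and between PP and Neuron 1 was higher and 2 lower in Neuron (36.7% and 38.6%). Insm1, a zinc finger factor of intermediate progenitors, stood at 135, 153 and 121 CPM in PP, at 283, 383 and 344 in DP, and at 182, 209 and 194 in Neuron. Its DP libraries lay above all others, as those of Rcor2 did. It rose 2.48-fold and then fell 1.73-fold (adjusted p = 5.66e-06 and 7.69e-05). Nr2e1, the nuclear receptor TLX of neural stem cells, fell 2.18-fold and then 31.4-fold (adjusted p = 8.78e-05 and 5.50e-10), from a PP range of 386 to 417 CPM to 158 to 234 in DP and 4.97 to 7.02 in Neuron.

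Of 32 textbook REST target genes 29 were tested (Glra1, Oprm1 and Avp had too few reads), and 19 rose and 3 fell from PP to DP, against the shares of 21.3% and 20.2% of all features. From DP to Neuron 27 were higher and 2 lower, against 33.1% and 34.2%, and from PP to Neuron also 27 and 2, against 36.7% and 38.6%. The median log2 fold changes were 1.49 and 2.76, where the median of all features was -0.02 and -0.04. These are genes of neurons by function, Tubb3 is itself a sort gene, and the summed neuron markers went from at most 604 CPM in PP to at least 10037 in Neuron. What part Rest has in their rise was not tested. Of the 29, 19 rose in both steps, and 7 passed the threshold only in the second, among them Scn2a1, a sodium channel gene, Bdnf, a neurotrophin gene, the glutamate receptor genes Gria2 and Grin1, the muscarinic receptor gene Chrm4, and Calb1. With the replicate block, Gria2 also rose in the first step (adjusted p = 0.0227). Whether these 7 differ from the 19 in the first step was not tested. The shares of all features that rose in both steps, or in the second step only, were not computed. Nothing particular to the targets is therefore read from the counts of 19 and 7.

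**Figure D5:**
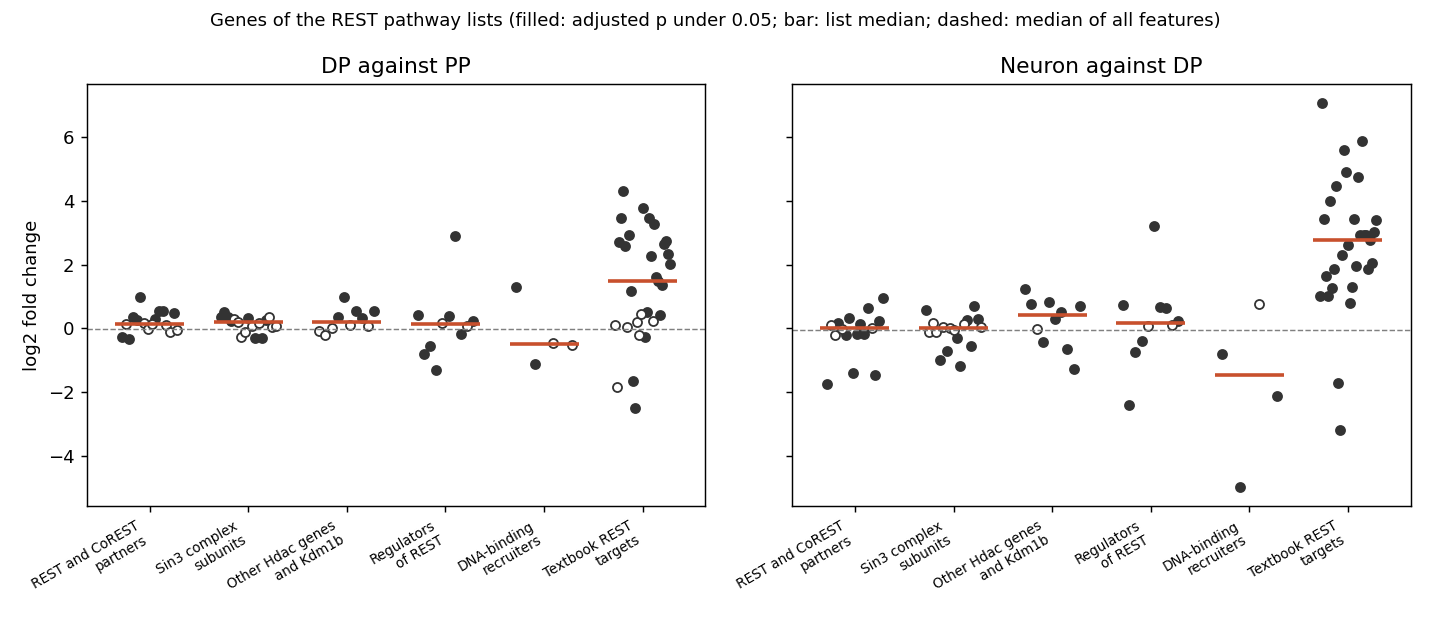
Log2 fold change of each tested gene of the 6 pathway lists for the step from PP to DP and the step from DP to Neuron, filled where the adjusted p is under 0.05, with a bar at the list's median and a dashed line at the median of all features. The textbook REST targets have medians of 1.49 and 2.76, and the partner list medians of 0.15 and -0.00215.

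Chga, a granule protein gene, had levels of 5.50, 3.08 and 2.01 CPM in PP, of 64.8, 78.8 and 62.6 in DP, and of 158, 136 and 127 in Neuron. L1cam, an adhesion molecule of axons, went from 18.1, 7.69 and 7.27 CPM in PP to 118, 169 and 157.2 in DP and to 969, 886 and 843 in Neuron, 13.6-fold and then 6.07-fold higher (adjusted p = 2.42e-06 and 5.00e-06). In PP both were highest in L222, the library with the highest sum of neuron markers, 604 CPM. Stmn2, a microtubule regulator of axons, rose late, with levels of 4.81, 2.16 and 1.60 CPM in PP, of 6.05, 10.8 and 8.59 in DP, and of 492, 524 and 471 in Neuron. It rose 3.08-fold and then 58.1-fold (adjusted p = 0.00158 and 9.42e-09).

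The 5 targets whose promoter windows are printed above are among the 19 of 29 tested targets that rose in both steps. Whether the letters in these windows have a part in the rise was not tested. Celsr3, an adhesion receptor gene of axon tracts, rose 11.1-fold and then 3.10-fold (adjusted p = 1.62e-06 and 7.72e-05), and Unc13a, a priming factor of synaptic vesicles, 5.04-fold and then 8.08-fold (adjusted p = 6.03e-07 and 5.18e-09). Syn1, the synapsin I gene, stood at 10.1, 9.76 and 10.4 CPM in PP, at 11.7, 14.4 and 14.4 in DP, and at 92.6, 110 and 104 in Neuron, and rose 1.34-fold and then 7.57-fold (adjusted p = 0.00591 and 4.61e-10). Scg2, a secretogranin gene, was counted with 7 reads in PP, 83 in DP and 857 in Neuron, all libraries added, and the Tubb3 log2 fold changes were 2.73 and 2.04. Calb1 had 8 reads in PP, 2 in DP and 305 in Neuron.

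The targets that fell are weakly expressed, apart from 1. Mapk8ip1, a kinase scaffold gene, was 1.19-fold lower in DP than in PP (adjusted p = 0.0299) and then rose 1.73-fold (adjusted p = 5.20e-06). Drd3 had 119 reads in PP, 22 in DP and 2 in Neuron, and Crh 86, 28 and 8, so this dopamine receptor gene and this hormone gene had few reads in any group.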

How the data were processed

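The authors counted reads per gene and deposited the counts as whole numbers for a single-read and a paired-end run of each library, and 18 samples thus give 9 libraries. Count columns carry library numbers that no label gives, which ties each column to a group by name but to no labelled replicate number, and 24 further columns of per-library values were not used. The submitters' processing notes give the build mm9 and, among other tools, the aligner TopHat2 2.0.10, the read counter featureCounts 1.4.4 and DESeq2 1.4.5. The sources used here do not say whether counting used the strand, and reads of a gene and of its antisense partner cannot be told apart. The log2 fold changes in the authors' deposited tables, 1 for each consecutive step, are their own, with a p-value and an adjusted p, and with a score per gene for the standard error, per the file headers.

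Here the counts of both runs were added, and the groups were tested in R 4.3.3 by means of edgeR 4.0.16 (TMM, filterByExpr, quasi-likelihood test, all 9 libraries, group as the only term). The standard error of a log2 fold change was computed from its F statistic. The fit was checked on simulated counts. Of 50 genes changed 1.5-fold, 58% were called from PP to DP and 64% from DP to Neuron. Of 50 genes changed 2-fold, 98% and 90% were called, so small changes can be missed. The replicates are stated to be biological, and the p-values rest on the spread between pools. Alternatives were median-ratio size factors, DESeq2 1.42.0, no filter, each run alone, only the 2 groups compared, each library left out in turn and, chosen after seeing the data, L222, L223 and L224 left out together and a replicate block. The block takes libraries of consecutive number as sets with 1 library of each group; no label states this pairing. Deviations from the group means across genes correlated at 0.192 to 0.508 in the 9 pairs of libraries within a set and at -0.46 to 0.08 in the 18 pairs between sets. The 8 genes, the 6 pathway lists and the 10 marker lists were chosen with earlier results of these data known. From each pathway list the text names the 2 genes at each end of the log2 fold changes per comparison, among those past the threshold whose libraries do not overlap and whose higher group reaches 1 CPM on average, and the 3 nearest profiles per repressor gene. Srrm4, Zfp335, Btg2 and Tubb3 are named whatever their values. Further target genes are named because their promoter window is printed, or because a count of 7 or fewer falls on them, and Hdac11 because its call changed with the block. Usp15, Usp7 and Fbxw11 are named to complete the list of genes that act on REST, and Snai1 and Snai2 because of their few reads. Map2 is listed under its older symbol Mtap2, and of 2 identifiers of Hdac4 the one with more reads was used. Exon lengths are those in the deposited tables. One gene of the target list is counted but not reported by name here.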

Additional observations from a re-analysis of the deposited data

How the results depend on the processing

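Over 17 alternative settings of the gene tests and 24 pairs of repressor gene and comparison, 396 of 408 values kept their direction and their side of the threshold, 4 lost the threshold, 6 gained it and 2 changed sign. The 4 losses are those of Rcor3 (DP against PP, without L355, L393 or L356) and Rcor1 (Neuron against DP, without L224). The gains are 4 for Rcor3 in Neuron against PP (without L222, with the paired-end runs alone, without L222, L223 and L224, and with the replicate block) and 2 for Rcor1 with the block. With the replicate block, added after seeing the data, 5 repressor genes were lower in Neuron than in PP and 2 higher in DP than in both other groups. The block changed no other call of a repressor gene, and from PP to DP 4794 features were higher and 4736 lower with it, against 3960 and 3754 without. The sign changed for Hdac1 in DP against PP, which was not past the threshold: its log2 fold change was 0.0227 without L222 and 0.0202 without L356, and -0.11 to 0.0227 with each library left out in turn. The count of repressor genes lower in DP than in PP was 1 to 2 with each library left out in turn. The cause was not tested. With L222, L223 and L224 left out together, a setting chosen after seeing the data, 3 repressor genes rose and 2 fell from PP to DP, 1 rose and 5 fell from DP to Neuron, and 3 were higher and 4 lower in Neuron than in PP. Median-ratio size factors moved the median log2 fold change of all features by at most 0.0292.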
